A study of Mus musculus with 6 samples.

Results

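The regions described here are the olfactory and vomeronasal receptor gene clusters of the mouse autosomes, in cultured dermal fibroblasts with and without Lap2alpha. They were taken as the 1 Mb windows, counted from position 0 of each autosome in build GRCm38, that overlap 5 or more protein-coding genes with a symbol starting Olfr, Or and a digit, Vmn1r or Vmn2r. There were 82 such windows of 2413 autosomal windows, on 16 chromosomes, with none on chromosomes 8, 12 and 18. The members were the open chromatin peaks with a summit in these windows, which were 2150 of the 95112 autosomal peaks in the Lap2alpha KO list and 2380 of the 102175 in the WT list. The windows hold 1369 of the 1454 autosomal receptor genes, which are 1103 Olfr, 229 Vmn1r and 122 Vmn2r genes. In 53 windows 5 or more genes were olfactory and in 29 windows 5 or more were vomeronasal, 1 window met both and 1 reached 5 only with both kinds together. In 7 windows every protein-coding gene was a receptor gene.

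Odorant receptors (Olfr) are G protein-coupled receptors of the nasal olfactory epithelium, where each sensory neuron expresses a single receptor allele and keeps the rest silent in compacted chromatin. Vmn1r and Vmn2r genes encode the pheromone receptors of the vomeronasal organ, Vmn1r receptors working with the G protein subunit Gnai2 and Vmn2r receptors with Gnao1. The genes of all 3 families lie side by side in long arrays, and outside sensory neurons these arrays are known as silent, late-replicating chromatin that tends to lie at the nuclear lamina. Lap2alpha is a splice form of the Tmpo product that, unlike the membrane-bound forms, is found in the nuclear interior, where it binds A-type lamins.

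The series compared 3 libraries of dermal fibroblasts labelled Lap2alpha KO with 3 libraries labelled WT, all grown in serum-containing DMEM, by ATAC-seq, which reads out where the Tn5 transposase can reach and cut the DNA. The labels give no strain, age, clone or separate animal for either genotype, and no detail of how the knockout was made. The authors deposited 1 peak list per genotype over its 3 libraries, so no spread between libraries can be had and no difference between the genotypes is tested here. A peak is called shared if it overlaps a peak of the other list by 1 bp or more, and otherwise KO-only or WT-only. Intervals are exact 95% binomial ranges, cover counting error only and treat neighbouring peaks as independent. The KO list has 98072 peaks and the WT list 106132 on all chromosomes, and read depth is unknown. Of 10 marker genes of dermal fibroblasts, 9 had a peak at a gene end in KO and in WT, the exception being Lum with no such peak in KO or WT. Among markers of other cell types, both lists had gene-end peaks at 1 of 6 olfactory neuron genes (Omp), 2 of 3 vomeronasal neuron genes (Gnao1 and Gnai2), 2 of 5 keratinocyte genes (Krt10 and Krt14), 1 of 4 leukocyte genes (Cd68) and 1 of 3 endothelial genes (Cdh5). Trpc2, the channel that defines vomeronasal neurons, and Ptprc, Trp63 and Pecam1 had none in either list.

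Receptor promoters, as placed by the start sites of gene models, were poor in CpG, and few of them had a peak in either genotype. From RefSeq (GRCm38.p6), 1265 promoters of 1260 receptor genes were available, each spanning 250 bases before to 50 bases after a start site. Some receptor gene models are short, such as Olfr136 with 939 bp, where the 50 bases after the start begin with ATG. In such models the start can be that of the coding sequence, so the stretch need not be the promoter in use. How many models this concerns was not counted. Their median GC content was 35.7% with a median of 1 CpG, against 57.7% and 15 CpG over 18819 other protein-coding promoters, and 31.1% held no CpG, against 2.60%. A KO peak overlapped 2 of the receptor promoters and a WT peak 7, which is 0.158% and 0.553%, against 56.2% and 57.3% of the other promoters. Among 1388 other promoters that held at most 1 CpG, the median of the receptor promoters, the shares were 7.13% in KO and 8.36% in WT. The receptor shares are over promoters of any CpG number, so these sets are not matched. The only receptor promoters with a peak in both lists were those of Vmn2r29 and Olfr49. The WT peak alone reached the promoters of Olfr101, Olfr102, Olfr136, Vmn1r45 and Vmn1r87, and at Olfr101, Olfr102 and Vmn1r87 that peak overlaps a KO peak, so these 3 calls rest on peak edges.

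The pair open in both lists and a neighbouring pair at which the lists differed are printed 5′ to 3′ on the gene's strand, with every CpG in capitals. Vmn2r29 is at chr7:7278240-7278539, Olfr49 at chr14:54282876-54283175, Olfr101 at chr17:37300435-37300734 and Olfr102 at chr17:37314388-37314687, all on the minus strand.
Vmn2r29: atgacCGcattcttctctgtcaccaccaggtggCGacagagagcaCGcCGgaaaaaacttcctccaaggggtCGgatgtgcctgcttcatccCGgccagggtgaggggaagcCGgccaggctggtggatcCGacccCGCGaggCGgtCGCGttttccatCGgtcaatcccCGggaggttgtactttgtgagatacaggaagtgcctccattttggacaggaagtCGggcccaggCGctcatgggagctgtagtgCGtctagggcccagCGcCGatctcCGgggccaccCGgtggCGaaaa
Olfr49: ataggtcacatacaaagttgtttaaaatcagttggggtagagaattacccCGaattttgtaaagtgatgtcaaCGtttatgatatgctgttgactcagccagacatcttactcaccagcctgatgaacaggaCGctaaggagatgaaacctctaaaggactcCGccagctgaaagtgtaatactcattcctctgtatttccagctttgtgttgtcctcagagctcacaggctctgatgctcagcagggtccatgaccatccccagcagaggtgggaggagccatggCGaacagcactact
Olfr101: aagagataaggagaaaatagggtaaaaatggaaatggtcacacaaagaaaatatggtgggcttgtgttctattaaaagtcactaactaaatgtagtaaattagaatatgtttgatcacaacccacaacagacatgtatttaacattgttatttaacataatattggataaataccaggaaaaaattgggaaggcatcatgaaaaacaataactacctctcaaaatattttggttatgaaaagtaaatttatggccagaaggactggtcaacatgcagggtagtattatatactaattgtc
Olfr102: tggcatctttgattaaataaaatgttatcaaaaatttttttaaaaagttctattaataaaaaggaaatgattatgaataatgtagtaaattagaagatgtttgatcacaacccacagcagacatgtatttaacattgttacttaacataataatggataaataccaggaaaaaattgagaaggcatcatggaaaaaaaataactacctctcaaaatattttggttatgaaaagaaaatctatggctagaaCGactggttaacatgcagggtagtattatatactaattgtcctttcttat
The Vmn2r29 promoter holds 23 CpG at a GC content of 62.3%, and the peak summits lay 15 bases before its start site in KO and 10 bases before in WT. Olfr49 holds 5 CpG and lies outside the receptor windows. Olfr101 and Olfr102 hold 0 and 1 CpG and are 89.5% identical over their aligned bases. At both of these genes the summits lay inside the gene and the lists had overlapping peaks. The Olfr102 peak ended at 37314301 in KO and at 37314458 in WT, so the promoter call in WT alone reflects the edge of a shared peak. Reads from similar receptor genes may map to more than 1 copy, and the handling of such reads is not given in the sources used here.

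Among sequence motifs searched on both strands, the AP-1 letters TGANTCA were in 15.8% of receptor promoters and 7.06% of all 20084 promoters. The homeodomain letters TAATTA were in 16.7% of receptor promoters and 4.47% of all. The start-site element spelled TATAAA was in 39.6% and 12.7%. The Ebf palindrome, which is TCCC and then GGGA with 2 free bases between them, went the other way, at 0.395% and 0.981%. Families differed, with the homeodomain letters in 7.28% of Vmn1r promoters and the start-site element in 23.1% of Vmn2r promoters. Among other promoters with at most 1 CpG the shares were 11.6% for the AP-1 letters, 8.14% for the homeodomain letters, 29.5% for the start-site element and 0.288% for the Ebf palindrome. Those promoters had a median GC content of 44.7%, against 35.7% in receptor promoters. The part of this difference in the motif shares was not tested. These motifs do not contain each other but can overlap at their ends, and a match is a description of the letters only. In short gene models the stretch searched can lie at a coding start, as said above.

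Peaks were sparse in the receptor windows in both genotypes, and few of them lay near the receptor genes themselves. The part of reads that map to several similar receptor genes in these counts was not tested. The same holds for the near-empty arrays and the distances from genes to peaks given below. KO had 26.2 peaks per Mb in the receptor windows and 39.9 in the other autosomal windows, and WT had 29.0 and 42.8. The median window held 20.5 KO peaks, against 36 elsewhere, and 24.5 WT peaks, against 38 elsewhere. In windows where receptor genes made up less than 50% of the genes, there were 1371 KO and 1459 WT peaks over 27 windows, more per Mb than in the other autosomal windows. Where they made up 50% to 80%, 27 windows held 642 KO and 753 WT peaks. Where they made up 80% or more, 28 windows held 137 KO and 168 WT peaks, with medians of 2 and 2.5 per window. The receptor-dense windows thus stood at 4.89 peaks per Mb in KO and 6 in WT, under the 6.49 and 8.30 of the 210 autosomal windows with no protein-coding gene at all.

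**Figure D1:**
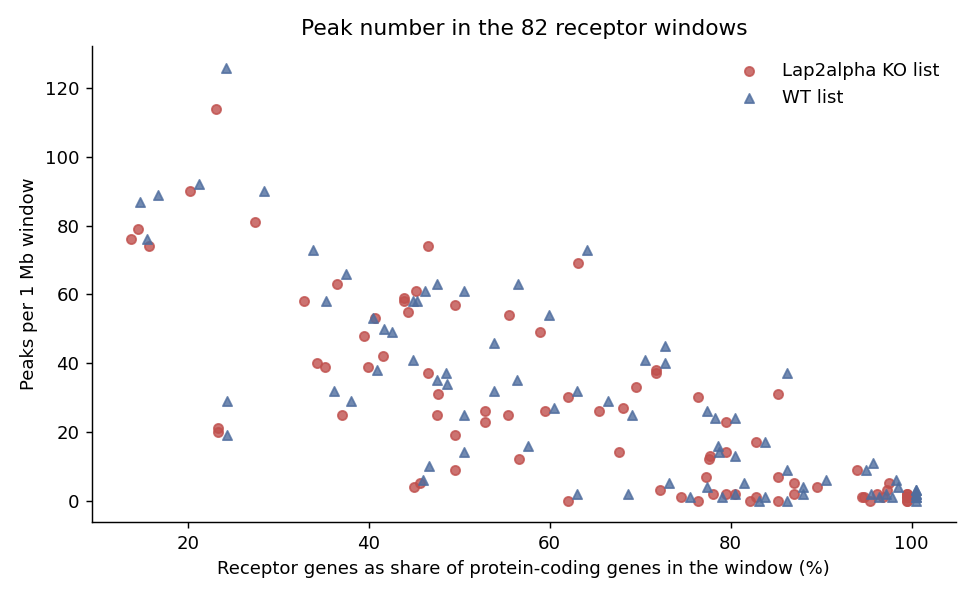
Peaks per 1 Mb window (y axis, number) against the share of the window's protein-coding genes that are receptor genes (x axis, percent) for the 82 receptor windows, with circles for the Lap2alpha KO list and triangles for the WT list, drawn 0.5 to the left and right of the true share. Windows with 80% or more receptor genes have medians of 2 peaks in KO and 2.5 in WT, and the highest of them has 31 in KO and 37 in WT.

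Several arrays dense in receptor genes were close to empty in both lists, but not all were. On chromosome 17 from 37000001 to 38000000, where 36 of 42 genes are Olfr genes, KO had 31 peaks and WT 37. The 4 windows on chromosome 7 from 20000001 to 24000000, with 85 vomeronasal receptor genes, held 3 KO and 2 WT peaks. Vmn1r129 in this array was the receptor gene farthest from any peak, 1404 kb away in KO and in WT alike. The 6 windows on chromosome 2 from 85000001 to 91000000, with 222 Olfr genes, held 74 KO and 87 WT peaks, yet the window from 86000001 to 87000000 with 49 Olfr genes and no other had 2 peaks in each list. On chromosome 7 from 102000001 to 109000000, 7 windows with 193 Olfr genes held 149 KO and 143 WT peaks. The run of 9 windows from 5000001 to 14000000 on the same chromosome, with 64 vomeronasal and 8 olfactory receptor genes, held 106 KO and 134 WT peaks. No peak of either list fell in 3 windows, all on chromosome 7.

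Counted over whole windows, KO had 90.3% of the WT peak number in the receptor windows and 93.2% in the other windows, a difference of -0.04 on the log2 scale with a counting interval of -0.13 to 0.04, which includes 0. Against other windows of the same 10 Mb blocks, a comparison added after the data were seen, it was -0.088 (-0.17 to -0.0035). KO-only peaks were 237 of 2150 in the receptor windows, or 11.0% (9.73 to 12.4%), where 13.6% of all autosomal KO peaks were KO-only. WT-only peaks were 477 of 2380, or 20.04%, where 19.9% of all autosomal WT peaks were WT-only. The KO-only share thus lay below the background and the WT-only share matched it.

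The WT-only share was higher the more of the window's genes were receptors. KO-only peaks were 10.9% of KO peaks in windows with under 50% receptor genes, 11.7% at 50% to 80%, and 8.76% (4.61 to 14.8%) at 80% or more. The WT-only shares of WT peaks were 17.3%, 23.5% and 28.6% (21.9 to 36.04%) in the same order. As a percent of the WT peak number, the KO number was 94.0, 85.3 and 81.5 in these 3 sets. In windows with no protein-coding gene, KO had 78.2% of the WT number, 20.2% of KO peaks were KO-only and 37.2% of WT peaks were WT-only. The windows of 5 or more Zfp genes, a family of zinc finger genes that also lies in clusters, went the other way: KO had 95.8% of the WT number, with 8.87% KO-only and 14.2% WT-only peaks. The WT peaks of the densest receptor windows were also weaker, with a median signal percentile within the WT list of 36.5, against 55.9 in windows with under 50% receptor genes.

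**Figure D2:**
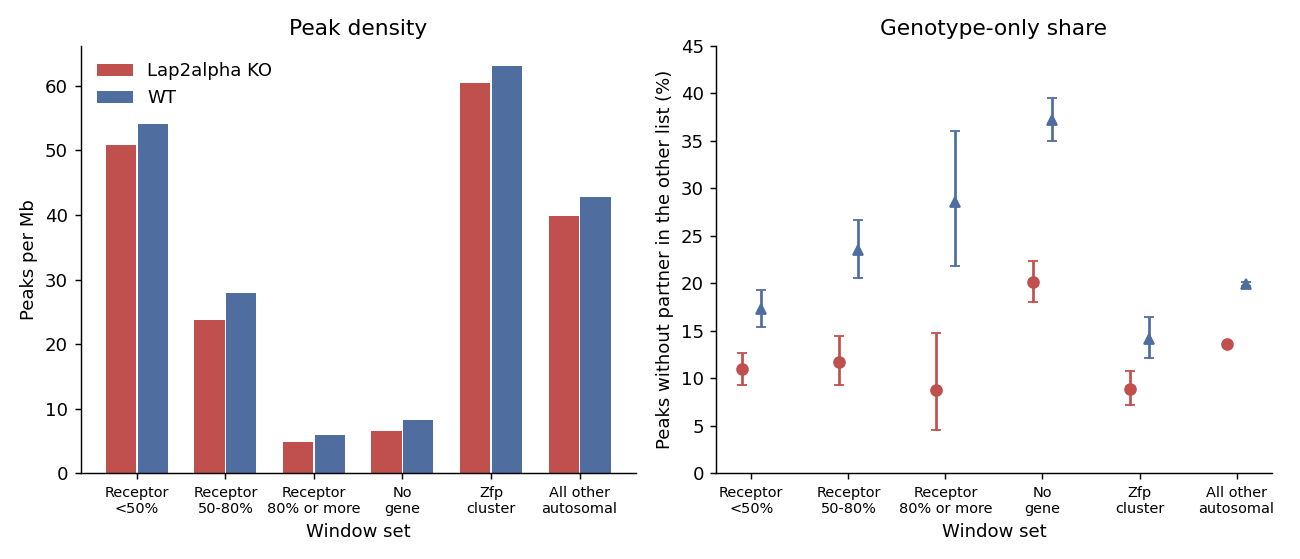
Left, peaks per Mb (bars) in the KO list and the WT list for windows with under 50%, 50 to 80% and 80% or more receptor genes, windows without a protein-coding gene, Zfp cluster windows and all other autosomal windows; right, the percent of each list's peaks with no overlapping peak in the other list, with exact 95% binomial intervals. Over the 3 receptor sets the KO-only share stays between 8.76% and 11.7%, while the WT-only share runs from 17.3% to 28.6%.

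Window by window, KO had more peaks in 16 receptor windows, WT in 52, and 14 had equal numbers. In the 2331 other autosomal windows KO had more in 670, WT in 1465, and 196 had equal numbers. WT thus led in most windows of both sets. Among the 57 receptor windows with 10 or more peaks over both lists, KO reached 1.5 times the WT number in 1 window, or 1.75%, and WT reached 1.5 times the KO number in 7 windows, or 12.3%. Over all 2070 autosomal windows of that size the percentages were 3.53 and 12.2, so the receptor windows stood near the background.

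A large WT excess in proportion lay in a Vmn2r array on chromosome 3 from 64000001 to 65000000. It held 7 KO peaks, all shared, and 24 WT peaks, of which 17 were WT-only. Of the WT-only peaks, 10 lay within 10 kb of a receptor gene, beside Vmn2r1, Vmn2r3, Vmn2r4, Vmn2r5 and Vmn2r6. The strongest ran from 64421866 to 64422833, 7023 bp from Vmn2r4, at signal percentile 81.7, and from 64571901 to 64572763, 6938 bp from Vmn2r6, at percentile 79.6. The other genes of this window are Gmps, a purine synthesis enzyme gene, and Kcnab1, a potassium channel subunit gene. Another Vmn2r array, on chromosome 5 from 109000001 to 110000000, held 26 KO peaks with 1 KO-only and 46 WT peaks with 20 WT-only. Of these 20 WT-only peaks, 5 lay within 10 kb of a receptor gene. On chromosome 7 from 86000001 to 87000000, among 15 Olfr and 5 Vmn2r genes, KO had 1 peak and WT had 11, of which 10 were WT-only and 7 of these within 10 kb of a receptor gene. That window was picked out after its values were seen.

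The other windows of largest WT excess held larger numbers of other genes. On chromosome 9 from 37000001 to 38000000, KO had 40 peaks with 1 KO-only, and WT had 58 with 20 WT-only. Of these 20 WT-only peaks, 5 lay within 10 kb of a receptor gene. This window holds 8 Olfr genes beside Robo3 and Robo4, guidance receptor genes, and Nrgn, a neuronal calmodulin-binding protein gene. On chromosome 4 from 43000001 KO had 74 peaks and WT 89, and on chromosome 10 from 78000001 KO had 58 and WT 73. Of the 19 WT-only peaks in this chromosome 4 window, 1 lay within 10 kb of a receptor gene. In the chromosome 10 window it was 1 of 20.

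In the 5 windows of largest KO excess, few of the KO-only peaks lay within 10 kb of a receptor gene. Of the 5 windows of largest WT excess, only that on chromosome 3 had most of its WT-only peaks within 10 kb. On chromosome 6 from 90000001 to 91000000, KO had 58 peaks with 23 KO-only and WT had 41 with 3 WT-only, and 1 of the 23 lay within 10 kb of a receptor gene. On chromosome 7 from 107000001 to 108000000, KO had 14 peaks with 12 KO-only and WT had 2 with none WT-only. None of these 12 lay within 10 kb of a receptor gene, and the strongest, from 107722257 to 107723067 at signal percentile 80.1, was inside Ppfibp2, a liprin family gene, 91780 bp from Olfr467. On chromosome 9 from 40000001 KO had 74 peaks with 17 KO-only and WT had 63 with 7 WT-only, and 2 of the KO-only and 2 of the WT-only peaks lay within 10 kb of a receptor gene. On chromosome 6 from 116000001 KO had 39 peaks and WT 32, and on chromosome 2 from 36000001 KO had 30 and WT 26, with no peak of either list within 10 kb of a receptor gene in these windows.

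Chromosomes differed in their ratio of KO to WT peaks, and the receptor windows mostly followed their own chromosome at a slightly lower level. On chromosome 6, with 9 receptor windows, KO had 101% of the WT number in the receptor windows and 105% in the others. On chromosome 7, with 24 receptor windows, the values were 90.4% and 93.4%. In the receptor windows this ratio, on the log2 scale, was below that of the chromosome's other windows on 13 of 16 chromosomes and above it on chromosomes 1, 13 and 19. Its lowest values, -1.78 on chromosome 3 and -0.82 on chromosome 5, each came from the 1 Vmn2r window described above, against -0.06 and -0.20 in the other windows of these chromosomes. The WT-only share was higher in the receptor windows than in the others on 8 of the 16 chromosomes.

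**Figure D3:**
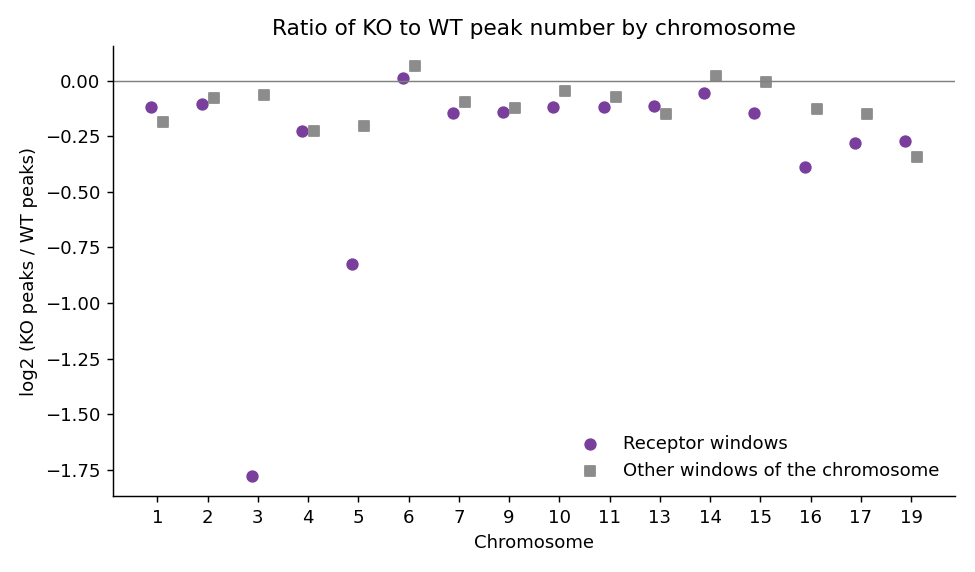
KO over WT peak number on the log2 scale (y axis) by chromosome (x axis), with circles for the receptor windows and squares for the other windows of that chromosome. The circles lie below the squares on 13 of 16 chromosomes, lowest on chromosome 3 at -1.78, a value from 7 KO and 24 WT peaks.

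Measured from the genes instead of the windows, the difference between the lists was largest within 10 kb of the receptor genes. Within 50 kb KO had 644 peaks and WT 801, so that KO had 80.4% of the WT number, a difference of -0.21 on the log2 scale from the other autosomal peaks with a counting interval of -0.36 to -0.06. At a summit −log10 p of at least 10 this was -0.087 (-0.30 to 0.13), and in the upper 50% by signal it was -0.14 (-0.36 to 0.086), both with intervals that include 0. The shares of peaks within 10 kb seen in 1 list only were added after the data were seen. At that distance KO had 193 peaks and WT had 264, so that KO had 73.1% of the WT number. Of these, 27 KO peaks were KO-only, or 14.0% (9.43 to 19.7%), beside the background of 13.6%. WT-only were 100 of the 264, or 37.9% (32.0 to 44.0%), beside the background of 19.9%. The part of reads that map to several similar receptor genes in this difference was not tested. At 10 to 50 kb, 7.32% of 451 KO peaks were KO-only and 23.1% of 537 WT peaks were WT-only. At 50 to 200 kb the shares were 10.3% and 19.6%, and beyond 200 kb they were 13.6% and 19.9%. Windows with no protein-coding gene had a KO-only share of 20.2% and a WT-only share of 37.2%, close to the WT-only share within 10 kb of receptor genes.

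Weak peaks are less often shared, and the peaks near receptor genes were weaker than average. Their median signal percentile was 43.0 in KO and 39.7 in WT, where all autosomal peaks give 50.2 in both lists. Within the lower 50% of each list by signal, 19.5% of the 118 near KO peaks were KO-only, against 24.8% of all autosomal KO peaks. In WT the shares of the lower 50% were 53.9% of 165 near peaks and 36.8% of all. Within the upper 50%, 5.33% of 75 near KO peaks were KO-only, against 2.44% of all, and 11.1% of 99 near WT peaks were WT-only, against 3.26% of all. The WT-only share near receptor genes was above that of all autosomal WT peaks in both the weaker and the stronger peaks. The KO-only share was below that of all autosomal KO peaks in the weaker and above it in the stronger peaks. Signal can still differ within each of these groups, and its part in the WT-only share was not tested. Where the near peaks were shared, the signal percentile was lower in KO than in WT for 110 of 164 WT peaks, or 67.1%, with a median difference of -3.39 points. At 10 to 50 kb it was lower for 272 of 413, or 65.9%, with a median of -2.28 points. Beyond 200 kb it was lower for 56.5%, with a median of -1.09 points.

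**Figure D4:**
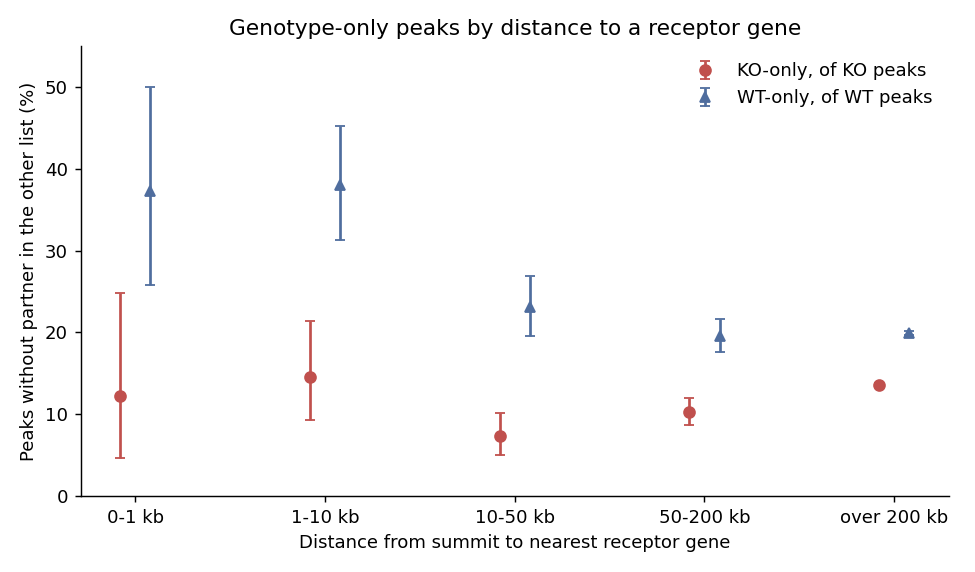
Percent of peaks with no overlapping peak in the other list (y axis) by the distance from the peak summit to the nearest receptor gene (x axis, 5 classes), with circles for KO-only among KO peaks, triangles for WT-only among WT peaks and exact 95% binomial intervals. The KO-only share stays between 7.32% and 14.6%, while the WT-only share is 37.3% at 0 to 1 kb, 38.1% at 1 to 10 kb and 19.9% beyond 200 kb.

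The excess near receptor genes was spread over chromosomes and genes. The KO-only share within 10 kb was above that of the chromosome's other peaks on 4 of 17 chromosomes with such peaks, and the WT-only share on 15 of 17. On chromosome 9, 3 of 6 near KO peaks were KO-only and 15 of 18 near WT peaks were WT-only. On chromosome 11, 2 of 21 near KO peaks and 4 of 23 near WT peaks were seen in 1 list only, close to the shares in the rest of that chromosome. Counted by 1 Mb window, KO-only peaks were more numerous in 10 windows, WT-only peaks in 38, and 29 had equal numbers. This count has no background of its own, and over all autosomes 12902 peaks were KO-only and 20383 WT-only. Without the Vmn2r window on chromosome 3, the WT-only share within 10 kb exceeded that of all other autosomal WT peaks by 15.7 percentage points, where all windows give 17.98.

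All 3 families had a higher WT-only share near their genes than the background, and the Vmn2r genes had the highest. Near Olfr genes KO had 146 peaks with 15.8% KO-only, and WT had 185 with 34.6% WT-only (27.8 to 41.9%). Near Vmn1r genes KO had 25 peaks with 2 KO-only, and WT had 30 with 7 WT-only, or 23.3% (9.93 to 42.3%), a range that includes the background. Near Vmn2r genes KO had 22 peaks with 2 KO-only, and WT had 49 with 29 WT-only, or 59.2% (44.2 to 73.0%). Neighbouring peaks of an array are not independent, and without the chromosome 3 window described above, left out after seeing the data, 2 of 21 KO peaks near Vmn2r genes were KO-only and 19 of 38 WT peaks were WT-only, with an interval of 33.4 to 66.6% that overlaps the Olfr one.

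With each peak given to its nearest receptor gene, 25 genes had a KO-only peak within 10 kb and 76 had a WT-only peak, of 179 genes with a peak of either list. The same count was not made for other genes. Over all autosomes WT-only peaks were also more numerous, at 20383 against 12902 KO-only peaks. Vmn2r1 had 1 KO peak, which was shared, and 5 WT peaks with 4 WT-only. Olfr433 had 2 KO peaks, both shared, and 5 WT peaks with 3 WT-only. No other gene had more than 2 WT-only peaks. Genes given 2 WT-only peaks and no KO peak by this rule were Olfr136, Olfr461, Olfr870, Olfr876, Olfr91, Vmn1r233, Vmn2r19, Vmn2r4, Vmn2r6 and Vmn2r78. A KO peak nearest to a neighbouring gene can still lie within 10 kb of them. At Olfr91 such a KO peak runs from 37084738 to 37084938, beside Olfr90. In the other direction Olfr63 had 4 KO peaks with 2 KO-only and 2 WT peaks, both shared, and Olfr986 had the same numbers. These genes were picked out after their values were seen.

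The median distance from a receptor gene to its nearest peak was longer in KO. The median was 128 kb in KO and 94.4 kb in WT over the 1454 autosomal receptor genes, while it was 0 kb in both lists over 19100 other protein-coding genes. The nearest peak was farther away in KO for 819 receptor genes, nearer for 485 and equally far for 150. Other protein-coding genes leaned the same way, with 3885 farther in KO, 2898 nearer and 12317 equally far. Receptor genes of an array can share their nearest peak, so they are not independent counts, and the WT list is the longer one. Olfr genes had medians of 127 kb in KO and 85.6 kb in WT, Vmn1r genes 157 kb and 147 kb, and Vmn2r genes 101 kb and 71.1 kb. Among Vmn1r genes the counts went the other way, with 62 farther in KO and 108 nearer, although their median was longer in KO.

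Few receptor genes had a peak at a gene end, taken as 1 kb on either side of the start or end of the gene. Of the 1454 genes, 27 carried such a peak in both lists, 2 in KO only, 11 in WT only and 1414 in neither. That is 0.138% in KO only and 0.757% in WT only, where 1.39% and 2.49% of the 20554 autosomal protein-coding genes are so called, and 11900 of those genes had a peak in both. Of the 27 genes open in both lists, the signal percentile of 20 was lower in KO. Their median percentile was 50.8 in KO and 53.3 in WT. Gene ends are those of the RefSeq models, whose start can be that of the coding sequence.

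The strongest gene-end peaks in both lists lay near 10 receptor genes. At Vmn1r4, outside the receptor windows, the percentiles were 95.7 in KO and 94.2 in WT, and the same peak covers an end of Nt5c3, a nucleotidase gene. Olfr983 on chromosome 9 had 89.3 in KO and 90.1 in WT. Olfr102 had 81.7 in KO and 83.5 in WT, and its neighbour Olfr101 had 78.8 and 81.2. The others were Olfr654, Olfr544, Vmn2r29, Olfr1033, Olfr457 and Olfr433, with percentiles of 65.9 to 81.2 in KO and 70.9 to 83.5 in WT. Olfr544 is known to be expressed outside the nose in mice.

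Gene-end peaks found in 1 list only were mostly weak. In KO only, they were at Olfr986, at percentile 13.5, and at Olfr458, at 10.6. In WT only, Olfr136 was the strongest at percentile 64.9, from 38333757 to 38334550 on chromosome 17, followed by Olfr116 at 55.3 and Olfr370 at 50.02. Olfr984, Vmn2r5, Olfr419, Vmn1r45, Vmn1r58, Vmn2r11, Vmn1r62 and Olfr452 stood between 7.62 and 42.2. The Vmn2r11 peak overlaps a KO peak that lies farther from the gene.

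Of the other genes inside the receptor windows, 63.8% had a gene-end peak in at least 1 list, against 66.4% of other genes outside them. Of 757 other protein-coding genes in the windows, 454 carried a gene-end peak in KO and WT, 10 in KO only and 19 in WT only. These are 1.32% and 2.51%, beside the background of 1.39% and 2.49%. The KO-only calls included Ifi47, an interferon-induced GTPase gene, at percentile 54.6. Further KO-only calls were at Grin3b, Ppfibp2 and Cyb5r2 (which share a peak), Rassf4, Prss41, Hcn2, Trim30c and Odf3, at percentiles of 0.724 to 29.5. The WT-only calls of highest signal were at Nup160, a nuclear pore gene, at 94.5, at Zfp57, an imprinting regulator, at 93.5, at Plpp2 at 82.2, at Nrgn at 80.5 and at Car9, a carbonic anhydrase gene, at 80.2. Clcn4, Nkapl, Ifi209, Vsig2 and Ifi214 followed at 69.2 to 44.8. The peaks at Nup160, Zfp57, Car9 and Clcn4 overlap a peak of the other list, so their calls rest on peak edges.

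Of the 5 strongest shared peaks of the windows, none lay within 10 kb of a receptor gene. A peak on chromosome 19 from 12005187 to 12013092 in WT, 17850 bp from Osbp and 23844 bp from Olfr1423, stood at percentile 100.0 in KO and in WT. The peak at Tnfrsf12a, a receptor gene of the tumor necrosis factor family, on chromosome 17 stood at 99.9 in KO and 100.0 in WT, and 3 peaks at the histone genes H4c18, H2ac23 and H2bc13 on chromosome 13 at 99.8 to 99.9 in both. The strongest KO-only peaks after that in Ppfibp2 were inside Ptprj, a receptor phosphatase gene, at percentile 78.3, and 1835 bp from Olfr543 at 73.1, followed by a further peak inside Ppfibp2 at 72.1 and 1 near Gramd1b at 71.1. The strongest WT-only peaks were near Casp14, a keratinocyte caspase gene, at 82.3, at Plpp2 at 82.2 and near Vmn2r4 at 81.7.

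Genes that serve the receptors in sensory neurons were mostly the same in both lists, as were most autosomal protein-coding genes. Of those 20554 genes, 11900 were open at an end under both genotypes and 7856 under neither. KO-only calls made up 1.39% of them and WT-only calls 2.49%. Whether the gene sets below differ from this background was not tested. Of 18 genes of odorant and pheromone signal transduction, 9 carried a peak at an end in KO and WT and 8 in neither. In this set 1 gene was called in WT only and none in KO only. The gene called in WT only was Gng13, a G protein gamma subunit, at percentile 24.2. Omp, which marks mature olfactory neurons, stood at 79.6 in KO and 73.4 in WT, Gnao1 at 80.8 and 83.6, and Gnai2 at 95.3 and 99.3. Of 10 receptor trafficking genes, 7 had a peak in both lists and 3 in neither. Of 26 regulators of olfactory neurons and receptor choice, 16 had a peak in both, 8 in neither, Sox11 in KO only at percentile 18.02 and Ebf3 in WT only at 39.7. Ebf1, a factor that binds receptor promoters in olfactory neurons, stood at 96.6 in KO and 96.0 in WT, and Lbr, the lamin B receptor gene, at 93.1 and 94.6. Of 81 other chemosensory receptor genes, 4 had a peak in both lists and 1, Ms4a6d, in WT only, while all 15 Taar and all 7 Fpr genes had none in either. A gene end here is an end of the longest span, so a peak at an inner promoter is not counted.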

How the data were processed

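ATAC-seq was measured in 3 Lap2alpha KO and 3 WT libraries of dermal fibroblasts. The tools named in the submitters' processing notes are Bowtie2 2.5.1, Genrich and deepTools 3.5.1, with build GRCm38. How Genrich was set, whether Tn5 cut sites were shifted and how libraries were combined is not given in the sources used here. For each genotype the authors deposited 1 peak list with a score, which stood at its ceiling for 95.0% of KO and 94.8% of WT peaks, a signal, summit −log10 p-values and summit positions. The deposited signal has no scaling between lists and was used only as a percentile within its list. The deposited −log10 p-value served only as a stricter threshold, and the deposited q was not used.

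Windows, overlap, distances and gene ends were computed with Python 3.11.15, pandas 2.3.3 and scipy 1.17.1, and overlaps were checked with bedtools 2.31.1 and tested on simulated data. Genes came from RefSeq GRCm38.p6. Genes listed on unplaced scaffolds (125 protein-coding) were left out, of which 4 were receptors, and the 7 receptor genes on X were not used. Windows run from the first to the last with a gene or peak on each chromosome. The distance of a peak was measured from its summit to the gene body. Shares carry exact Clopper-Pearson 95% intervals. With 1 list per genotype no test between genotypes was made and no p-value is given. Named windows were the 5 with the largest and the 5 with the lowest KO minus WT peak number. Named peaks were the 5 of highest signal per genotype without a peak in the other list 1 kb to either side, and the 5 strongest shared. Named genes were all receptor genes with a gene-end peak in 1 list, up to 10 in both, and up to 10 other genes per direction. A few genes taken by these rules and 1 marker list are not reported here. The members and lists were chosen with earlier results of these data known. Alternatives tried were other window sizes and starts, gene minimums, overlap rules, peak thresholds, comparison windows and each chromosome left out.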

Additional observations from a re-analysis of the deposited data

How the results depend on the processing

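Of 30 alternatives, 29 kept KO below WT in receptor windows relative to other windows. The log2 value, -0.04, was -0.14 for windows with at least 50% receptor genes, and 0.0013 at a summit −log10 p of at least 10, a threshold chosen after seeing the data. In windows of 500 kb it was -0.11 (-0.23 to 0.013). Without each chromosome in turn it ran from -0.06 to -0.03. The KO share overlapping WT was higher by 2.60 points, and by 1.08 in the upper 50% by signal, 4.55 in windows shifted by 500 kb, 4.05 in windows of 500 kb, 4.27 with at least 10 receptor genes and 4.72 against windows with few peaks. The WT share overlapping KO differed from other windows by -0.10 points, and by -3.26 in windows of 500 kb, 2.28 in windows of 2 Mb, 3.36 against other windows with few peaks and -4.48 for windows with at least 50% receptor genes (14 of 31 alternatives below 0, 17 above). The log2 ratio of KO-only to WT-only peaks relative to other windows was -0.36, and -0.028 at −log10 p of at least 10, -0.69 in shifted windows, -0.84 in windows of 500 kb, -0.11 in windows of 2 Mb and -0.72 with at least 50% receptor genes. The log2 ratio of peaks per Mb was -0.61 in KO and -0.56 in WT, and as a median over windows -0.81 and -0.63; in the upper 50% by signal it was -0.53 in KO. The WT-only excess within 10 kb of receptor genes, 17.98 points, was above 0 in all 24 alternatives, at 11.5 with −log10 p of at least 10 and 14.6 without chromosome 9, while the KO-only difference of 0.43 points was below 0 in 6 and above 0 in 18. Receptor genes with a gene-end peak in KO only were 2, and 4 within 5 kb and 1 in the upper 50% by signal; in WT only they were 11, and 7 within 500 bp, 31 within 5 kb and 4 in the upper 50%. The cause of these changes was not tested. No paired analysis was possible because each genotype has 1 combined list with no replicate numbers. Unknown read depth and the absence of separate library values limit every comparison.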
